A study of Mus musculus with 6 samples.

Results

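The subunits of the oxidative phosphorylation system were followed across the cell classes of the mouse pancreas. They were chosen by gene symbol: nuclear genes starting with Ndufa (other than the Ndufaf assembly factors), Ndufb, Ndufc, Ndufs, Ndufv, Uqcr, Cox4i, Cox5, Cox6, Cox7, Cox8 or Atp5, together with Cycs and Sdha to Sdhd, and the subunit genes of the mitochondrial DNA, whose symbols start with mt-. The rule took 99 of the 31053 genes in the files, 86 nuclear and 13 mt- genes. The nuclear members belong to complex I (38 genes), complex II (4), complex III (8), cytochrome c (1), complex IV (18) and complex V (17), and the mt- members to complex I (7), complex III (1), complex IV (3) and complex V (2). The prefix rule also takes Atp5s, which is not a structural subunit, and 2 rows named Atp5o, and it places Ndufa4 with complex I by its name although its protein is found with complex IV.

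Complexes I to IV pass electrons from NADH and succinate to oxygen in the inner mitochondrial membrane and build a proton gradient, and complex V, the ATP synthase, uses that gradient to make ATP. Complex II is made of nuclear subunits only, while every other complex mixes nuclear subunits, made in the cytosol and imported, with a core made inside the mitochondrion from its own DNA. That DNA is transcribed as long precursors that are cut into mRNAs. Acinar cells, which make digestive enzymes, duct cells, which pump bicarbonate, and the vascular and immune cells around them differ in their need for ATP.

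The libraries were droplet-based single-cell RNA libraries of pancreatic cells from R26[CA]30EYFP mice on a C57Bl/6J background, a strain in which a repeat keeps the EYFP gene out of frame until a slip at replication restores it. Each of 3 runs gave 1 library of EYFP negative and 1 of EYFP positive cells. The mice of runs 1 and 2 were untreated (homeostasis), and those of run 3 were studied 9 days after cerulein-induced pancreatitis (intraperitoneal, 50 ug/kg, 7 hourly injections on each of 2 days), so pancreatitis and run 3 cannot be told apart. The labels give neither ages nor whether libraries came from separate mice, and p-values therefore measure only the spread between these libraries.

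The files held 8582 barcodes and 44833541 UMIs (unique molecular identifiers, each counting 1 captured RNA molecule), and 4792 barcodes were kept, between 173 and 1702 per library. Features named for EYFP were not among the genes, so the labels could not be checked in the counts. Barcodes over 20% mitochondrial UMIs were left out: EYFP negative libraries lost 286, 304 and 23 by run, EYFP positive ones 37, 5 and 20. Haemoglobin genes took 62.6% of all UMIs of the EYFP negative library of run 3 and 20.2% of those of its EYFP positive library, against 0.213% to 7.23% in the others. Within runs 1, 2 and 3, 23, 71 and 47 barcodes occurred in both libraries, against at most 2 between libraries of different runs. The deeper copy held a median of 32.4, 11.6 and 15.4 times the UMIs of the shallower one, and 93 of 97 pairs with both copies in a class had the same class, so only the deeper copy was used. Even so 54 of the 173 cells of EYFP positive run 2 carry a shared barcode. Cells were clustered without the members and named by marker genes: acinar-like clusters were led by Ctrb1, Clps and Try4 or by Rbpjl and Ctrc, the main ductal-like cluster by Spp1, Clu and Krt18, and endothelial-like clusters by genes such as Kdr, Plvap and Fabp4.

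Ductal-like cells held the largest share of nuclear oxidative phosphorylation transcripts. The 86 nuclear members summed to 29086 ± 2534 UMIs per 1e6 UMIs of the class (CPM; SD, n = 5 libraries), with 26475 CPM in the lowest and 32210 CPM in the highest library. T or NK-like cells held 16913 ± 471 CPM (n = 6) and macrophage or monocyte-like cells 16483 ± 1936 CPM (n = 4). With all UMIs as the base, every ductal-like library lay above every library of the other classes, whose highest value was 19150 CPM in macrophage or monocyte-like cells.

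Endothelial-like cells held a nuclear sum of 15048 ± 2095 CPM (n = 6) and B or plasma-like cells 14439 ± 1515 CPM (n = 6). These and the T or NK-like and macrophage or monocyte-like values overlapped from library to library, so their order is not resolved. Fibroblast-like cells had 11349 ± 1065 CPM (n = 3) and acinar-like cells 6436 ± 2234 CPM (n = 6). The highest acinar-like library, at 9793 CPM, lay below the lowest fibroblast-like one, at 10377 CPM. Acinar-like libraries carried 24.5% to 83.0% of their UMIs in digestive enzyme genes, and outside enzyme, haemoglobin and mt- genes their nuclear sum was 30003 CPM on average (7976 to 52233), beside 30354 ± 2614 CPM in ductal-like cells. The low place of acinar-like cells, and the lead of ductal-like over acinar-like cells, therefore hold only where all UMIs are the base. A lower share of a class's UMIs does not separate less of an RNA per cell from more of other RNA.

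The 13 mt- members varied far more between libraries of the same class. In T or NK-like cells the nuclear sums lay between 16276 and 17430 CPM in the 6 libraries, while the mt- sums ranged from 21327 to 64817 CPM (39475 ± 16506). B or plasma-like cells held 39520 ± 10713 CPM, fibroblast-like cells 42165 ± 9926 CPM, ductal-like cells 38448 ± 11018 CPM and macrophage or monocyte-like cells 32308 ± 13848 CPM of mt- members. Endothelial-like cells, at 22299 ± 6819 CPM, and acinar-like cells, at 12620 ± 8600 CPM, had lower means than these. Erythroid-like cells, mostly haemoglobin, had nuclear sums of 824 and 1202.5 CPM and mt- sums of 2811 and 2794.5 CPM in EYFP negative runs 2 and 3. Ranges overlapped between most classes, so the mt- sum orders them less clearly than the nuclear sum.

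**Figure D1:**
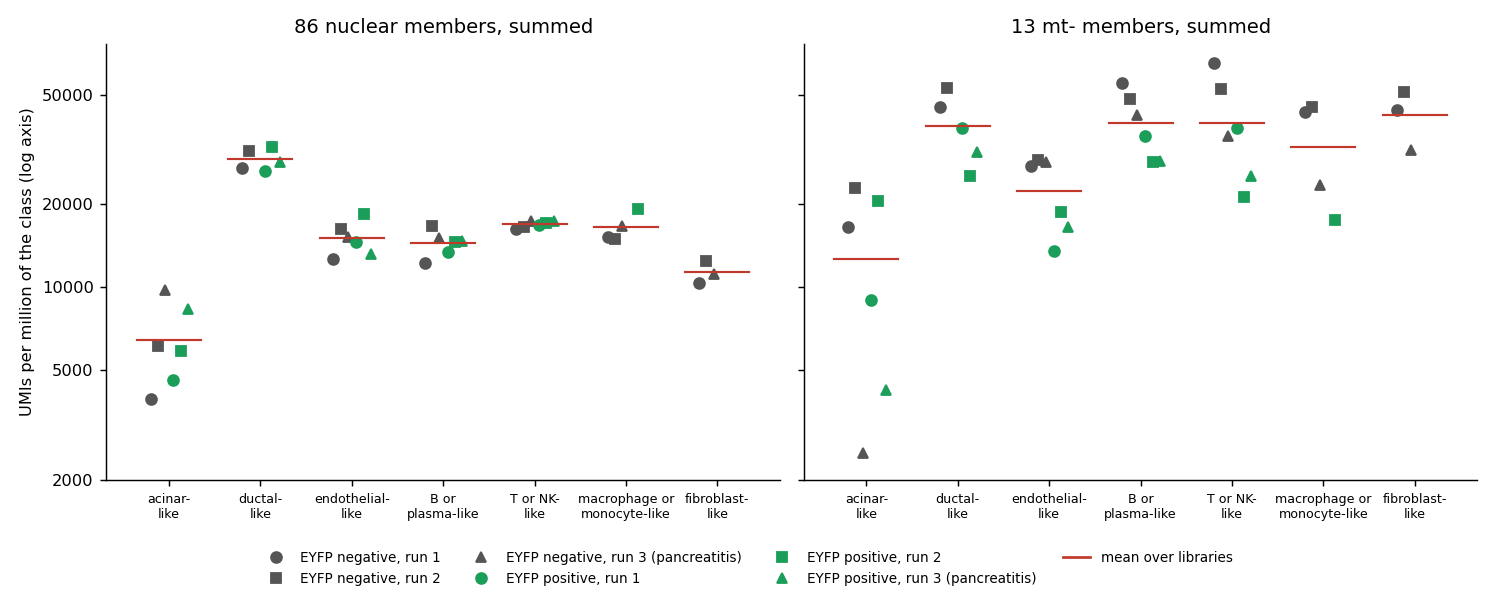
Sum of the 86 nuclear members (left) and of the 13 mt- members (right) in CPM of the class, on a log axis, for each library of 7 classes with enough cells (erythroid-like and pericyte or smooth muscle-like cells are not drawn); marks give run and EYFP label and red lines the mean over libraries. Nuclear sums of ductal-like cells lie above all others, and the mt- sums of a class spread with the EYFP label, and of the values drawn acinar-like run 3 lies lowest (2509 and 4240 CPM).

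The ratio of nuclear to mt- UMIs put these together. It was 0.279 ± 0.0667 (n = 3) in fibroblast-like, 0.389 ± 0.111 (n = 6) in B or plasma-like and 0.499 ± 0.212 (n = 6) in T or NK-like cells. Macrophage or monocyte-like cells had 0.621 ± 0.358 (n = 4), endothelial-like cells 0.735 ± 0.255 (n = 6) and ductal-like cells 0.816 ± 0.287 (n = 5). Neighbouring classes in this order overlapped. The acinar-like ratio of 1.19 ± 1.48 (n = 6) describes no typical library, since it ran from 0.238 to 3.90.

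The share of each complex in the nuclear sum differed between classes by several percentage points. Complex I genes gave 35.5% of the nuclear sum in ductal-like, 35.7% in endothelial-like and 30.3% in T or NK-like cells (SD 0.56, 0.68 and 0.72 percentage points over libraries). Complex V genes moved the other way, with 26.8%, 26.7% and 31.5% (SD 0.51, 0.64 and 1.19). Complex IV genes made up 20.1% of the nuclear sum in acinar-like and 27.3% in macrophage or monocyte-like cells, and the 4 succinate dehydrogenase genes 1.28% in acinar-like and 2.89% in fibroblast-like cells. In the 2 pericyte or smooth muscle-like libraries complex I genes gave 41.4% (38.2% and 44.6%) and complex V genes 21.4% on average. Of the 5838 CPM of complex I genes there, 1109 CPM came from Ndufa4l2 alone, placed with complex I by its symbol. Among mt- UMIs complex IV genes took 45.3% in endothelial-like and 56.9% in macrophage or monocyte-like cells (SD 3.23 and 2.36). The ductal-like excess was spread over many genes: 66 of the 78 nuclear members with at least 50 CPM in some class had their highest mean there, while 7 of 12 such mt- members had it in fibroblast-like cells. The share of all genes with their highest mean in ductal-like cells was not taken. The count therefore does not set the members apart from other genes. Cox4i1, the common isoform of complex IV subunit 4, had 1224 ± 125 CPM in ductal-like cells (n = 5) against 475 ± 57.0 CPM in endothelial-like cells (n = 6). Atp5b, the catalytic beta subunit of the ATP synthase, had 638 ± 85.8 against 353 ± 42.8 CPM, and Sdha, the flavoprotein of complex II, 187 ± 55.8 against 112 ± 18.2 CPM. Cycs, which carries electrons from complex III to complex IV, did not follow: its 138 ± 36.8 CPM in ductal-like cells lay within the spread of the 124 ± 22.1 CPM in endothelial-like and below the 191 ± 37.8 CPM in T or NK-like cells.

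Paralogous subunits gave the sharpest differences between classes. Ndufa4l2, a paralog of Ndufa4 known as a target of hypoxia-inducible factors, was found almost entirely in the 33 pericyte or smooth muscle-like cells and in fibroblast-like cells. It had 106 UMIs in the former, or 1257 CPM (95% exact Poisson interval 1029 to 1520), and 92 UMIs or 111 CPM (89.2 to 136) in the latter, and between 0 and 2 UMIs in every other class. Against the 314 ductal-like cells, which had none, the mean over the pericyte or smooth muscle-like libraries was at least 1391-fold higher, counting 3 UMIs over the class as the floor. The 2 pericyte or smooth muscle-like libraries with enough cells, EYFP negative runs 2 and 3 with 13 cells each, had 1177 and 1040 CPM. Fibroblast-like cells of EYFP negative runs 1, 2 and 3 had 61.0, 76.5 and 202 CPM of Ndufa4l2, highest in run 3, with 25, 86 and 39 cells.

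Ndufa4 itself had 1 UMI in the pericyte or smooth muscle-like cells, or 11.9 CPM (0.3 to 66.1). The other classes held 175 CPM (acinar-like) to 920 CPM (ductal-like) of Ndufa4, apart from erythroid-like cells, which are mostly haemoglobin, at 32.2 CPM. The class richest in Ndufa4l2 thus had the lowest pooled level of Ndufa4. Cox4i2, the oxygen-regulated isoform of complex IV subunit 4, followed Ndufa4l2 with 56 UMIs or 664 CPM (502 to 862) in pericyte or smooth muscle-like cells. It had 9 UMIs (10.8 CPM) in fibroblast-like cells and 0 to 4 UMIs in each of the others, while Cox4i1 was still present at 344 CPM (230 to 494) in the pericyte or smooth muscle-like cells. These intervals cover counting error only.

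The isoforms known from heart and skeletal muscle or from testis were rare. Cox7a1, a muscle isoform, had 51 UMIs, 33 of them in ductal-like cells (8.8 CPM), and Cox6b2, known from testis, had 86 UMIs, of which 37 were ductal-like and 23 erythroid-like. Cox6a2, another muscle isoform, had 45 UMIs in 10 cells, and 32 of these UMIs lay in B or plasma-like cells of EYFP negative run 2. Cox7b2 had 3 UMIs, Cox8b 1 and Cox8c 0 in all kept cells. Atp5g3, Ndufs6, Ndufs4, Ndufab1, Ndufa5 and Ndufb7 completed the members with the largest ratio between class means, each highest in ductal-like and lowest in the haemoglobin-filled erythroid-like cells, as were Sdha and mt-Atp8.

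**Figure D2:**
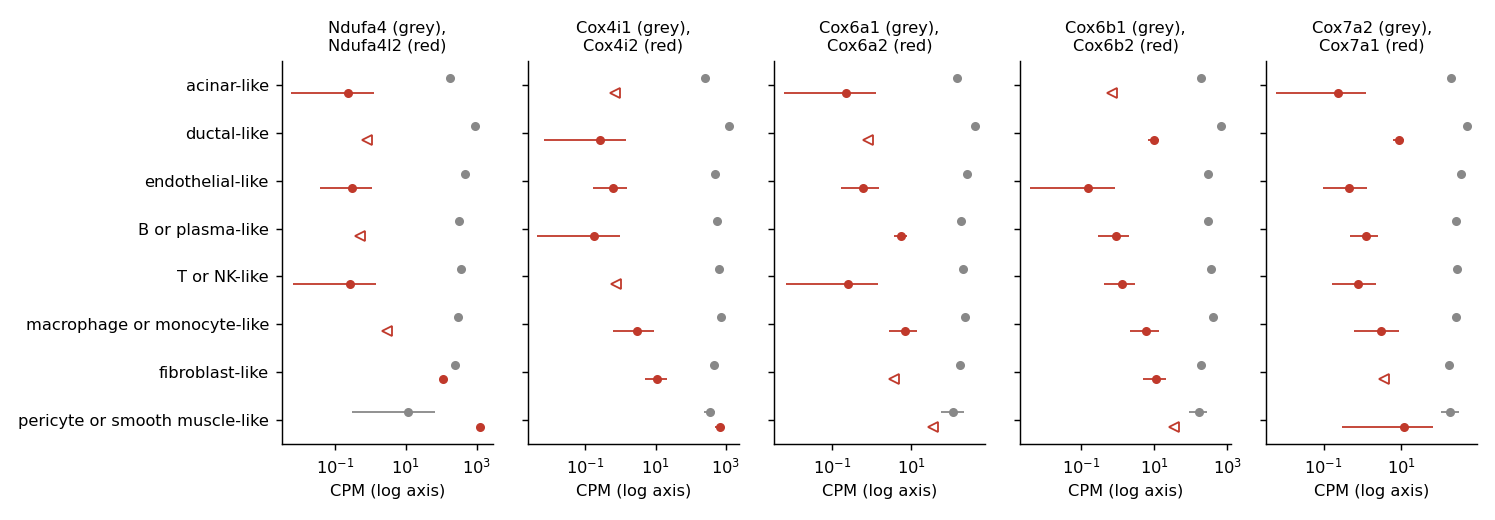
Pooled CPM (log axis) of 5 pairs of paralogous subunits in each class, with 95% exact Poisson intervals; open triangles mark 0 UMIs, drawn at 3 UMIs over the class. Ndufa4l2 and Cox4i2 stand at 1257 and 664 CPM in pericyte or smooth muscle-like cells, where Ndufa4 has 1 UMI.

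Within a run, mt- transcripts took a smaller share of the UMIs of EYFP positive than of EYFP negative cells of the same class. Leaving acinar-like cells aside, 12 pairs of class and run had enough cells in both libraries. The mt- sum was lower and the nuclear to mt- ratio higher in the EYFP positive library in 12 of 12, whereas the nuclear sum was higher in 8 and lower in 4. Single clusters within a class did not all follow. In a B or plasma-like cluster of low UMI counts, with 7, 7 and 2 EYFP positive cells, the mt- sum was higher in the EYFP positive library of each run. In the largest B or plasma-like cluster (774 cells) the mt- sum was lower in each run. In endothelial-like cells the ratio was 0.460, 0.562 and 0.535 in EYFP negative runs 1, 2 and 3 and 1.08, 0.978 and 0.797 in the EYFP positive ones, so the groups did not overlap. B or plasma-like cells had ratios of 0.223, 0.347 and 0.358 against 0.380, 0.513 and 0.514, and T or NK-like cells 0.251, 0.315 and 0.493 against 0.446, 0.800 and 0.689. In T or NK-like cells the EYFP negative value of run 3 exceeded the EYFP positive value of run 1, so that ordering held only within runs. Ductal-like cells went from 0.599 to 0.698 in run 1 and from 0.589 to 1.27 in run 2, and macrophage or monocyte-like cells from 0.332 to 1.09 in run 2.

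The pairs of a run share their 2 libraries, so these are 3 comparisons of libraries and not 12. Median UMIs per cell moved with the label in some classes, for example 3160, 2229 and 2060 in EYFP negative and 5164, 3265 and 3402.5 in EYFP positive endothelial-like cells of runs 1 to 3. In B or plasma-like cells, at 6056, 3464 and 5343 against 5480, 3797 and 7368, they were lower in the EYFP positive library of run 1 and higher in those of runs 2 and 3. With no limit on mitochondrial UMIs, which returned more EYFP negative cells, the ratio was higher in the EYFP positive library in 11 of 12 pairs. These were not the same 12 pairs. The pair that went the other way was fibroblast-like and had not been compared before, and 0 macrophage or monocyte-like pairs were compared there. Without the clusters of low UMI counts the ratio was higher in 12 of 12 (where edgeR called 1 endothelial-like member, mt-Co3, and 0 B or plasma-like ones, beside 0.0726% and 0.0155% of all genes). Without any shared barcode it was higher in 9 of 9. Only 1 ductal-like, 2 T or NK-like and 0 macrophage or monocyte-like pairs then had enough cells, against 2, 3 and 1 before. The pairs lost could not be checked in this way. The part of depth and cell quality in the difference was not tested. Ductal-like cells could be fitted only with the shallower copies of shared barcodes kept, where edgeR called 0 of 89 members for EYFP and 0 for pancreatitis, beside 0.0881% and 0.162% of all genes. There 10 and 2 members had an unadjusted p under 0.05, and DESeq2 was not run on that fit.

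**Figure D3:**
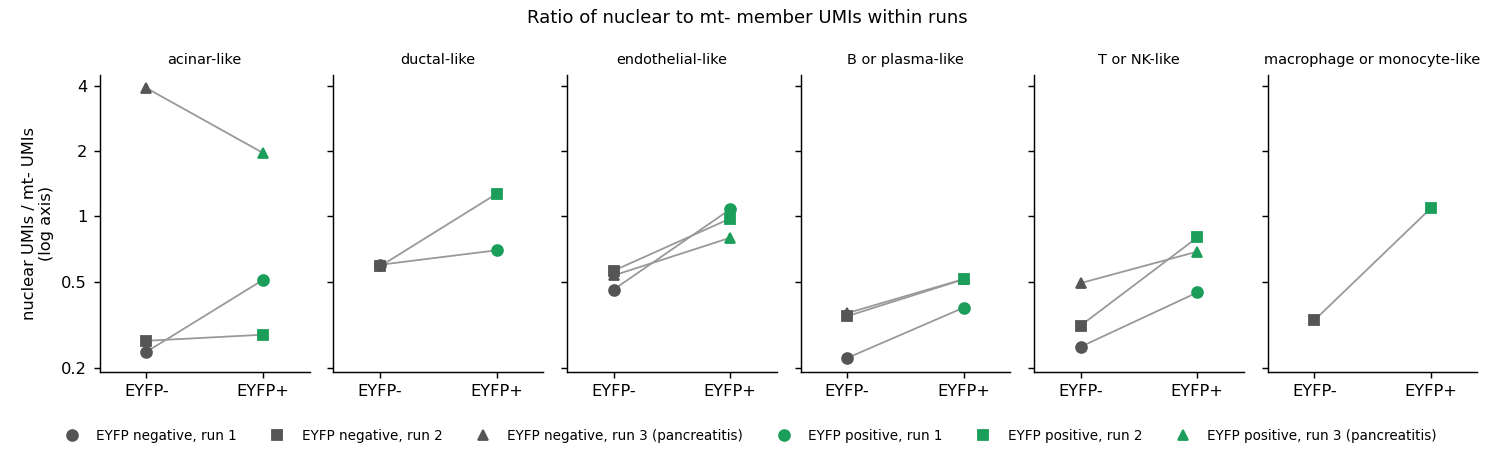
Ratio of nuclear to mt- member UMIs (log axis) in EYFP negative and EYFP positive libraries, with a line for each run. The line rises in all 12 pairs outside acinar-like cells, and in acinar-like cells run 3 falls from 3.90 to 1.96.

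The 13 mt- genes did not fall evenly. mt-Co3, subunit 3 of complex IV, had 5026, 5019 and 5240 CPM in endothelial-like cells of EYFP negative runs 1, 2 and 3 and 1628, 1749 and 2183 CPM in the EYFP positive ones. B or plasma-like cells had 12009, 9342 and 8598 CPM of mt-Co3 against 4723, 3393 and 4397 CPM. T or NK-like cells had 14217, 10226 and 7577 CPM against 5753, 2652 and 3993 CPM. In each of these classes all EYFP negative libraries lay above all EYFP positive ones. mt-Nd4l, a small membrane subunit of complex I, went the other way, with 127, 235 and 168 CPM against 202, 597 and 288 CPM in endothelial-like cells by run. In B or plasma-like cells mt-Nd4l had 202, 367 and 207 CPM against 456, 824 and 335 CPM, higher in the EYFP positive library of each run although the groups overlapped in both classes.

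In a model of all 6 libraries that held pancreatitis as a second term, edgeR's quasi-likelihood test with Benjamini-Hochberg adjustment over all genes called 0 of 89 tested members between EYFP positive and EYFP negative cells in each of the 3 classes. It called 0.0426% of genes tested in endothelial-like, 0.0152% in B or plasma-like and 0.0381% in T or NK-like cells. At an unadjusted p under 0.05 there were 8, 11 and 8 members, and DESeq2 called 1, 1 and 4, beside 0.0187%, 0.0135% and 0.0482% of all its genes. The log2 difference of mt-Co3 was -1.31 ± 0.27 (SE; adjusted p = 0.299), -1.34 ± 0.26 (0.367) and -1.45 ± 0.38 (0.362) in these classes by edgeR. It was below 0 in every alternative tried (20, 20 and 19), with adjusted p between 3.28e-05 and 0.9999, between 3.02e-05 and 0.986 and between 0.000991 and 0.927. The median over the 13 mt- members was -0.54, -0.67 and -0.85, with 4 higher and 9 lower in each class, beside medians near 0 for all genes tested (0.00, -0.00 and 0.01).

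The run numbers were taken to pair the libraries, since the labels name the number a run and nearly all shared barcodes lay within runs. The labels do not say whether the 2 libraries of a run share mice. With run as a replicate block, edgeR called 2 members in endothelial-like, 1 in B or plasma-like and 5 in T or NK-like cells, beside 0.0709%, 0.122% and 0.305% of all genes. mt-Co3 was lower in EYFP positive cells in all 3 (log2 difference -1.31, -1.35 and -1.48, edgeR adjusted p = 0.00109, 0.0139 and 0.000991). mt-Nd4l was higher in endothelial-like cells (1.08, 0.0144). In T or NK-like cells mt-Nd2 (-1.08), mt-Co2 (-0.96), mt-Atp6 (-1.11) and mt-Cytb (-0.90, the mt- subunit of complex III) also fell (edgeR adjusted p = 0.0203 to 0.0327). Among members not called without the block, mt-Nd3 was at -1.33 ± 0.33 in T or NK-like and -0.99 ± 0.27 in endothelial-like cells, and Atp5g2, a c-ring subunit gene of the ATP synthase, was at 0.52 ± 0.25 in endothelial-like cells. Nuclear members gave 0 calls with the block in these classes. With the shallower copies of shared barcodes kept, mt-Co3 was at -0.99 in endothelial-like cells and not called (edgeR adjusted p = 0.9999).

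As shares of the mt- sum the same shift was seen in all 12 pairs of class and run outside acinar-like cells. The pattern was noticed after the data were seen and is given without a test, and the pairs of a run share their libraries. mt-Co3 took a median of 19.5% of mt- UMIs in EYFP negative libraries (17.4% to 21.9%) and 13.3% in EYFP positive ones (9.29% to 15.8%), lower in 12 of 12 pairs. mt-Nd4l rose from a median of 0.657% to 1.63%, mt-Nd5, a large subunit of complex I, from 1.07% to 2.17%, and mt-Co1, the catalytic subunit of complex IV, from 17.2% to 20.7%, each in 12 of 12. mt-Nd4 and mt-Atp8 were higher in 11 of 12, and mt-Nd2 was lower in 11 of 12. Shares of a sum are tied to each other, so a lower share of mt-Co3 raises the rest.

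**Figure D4:**
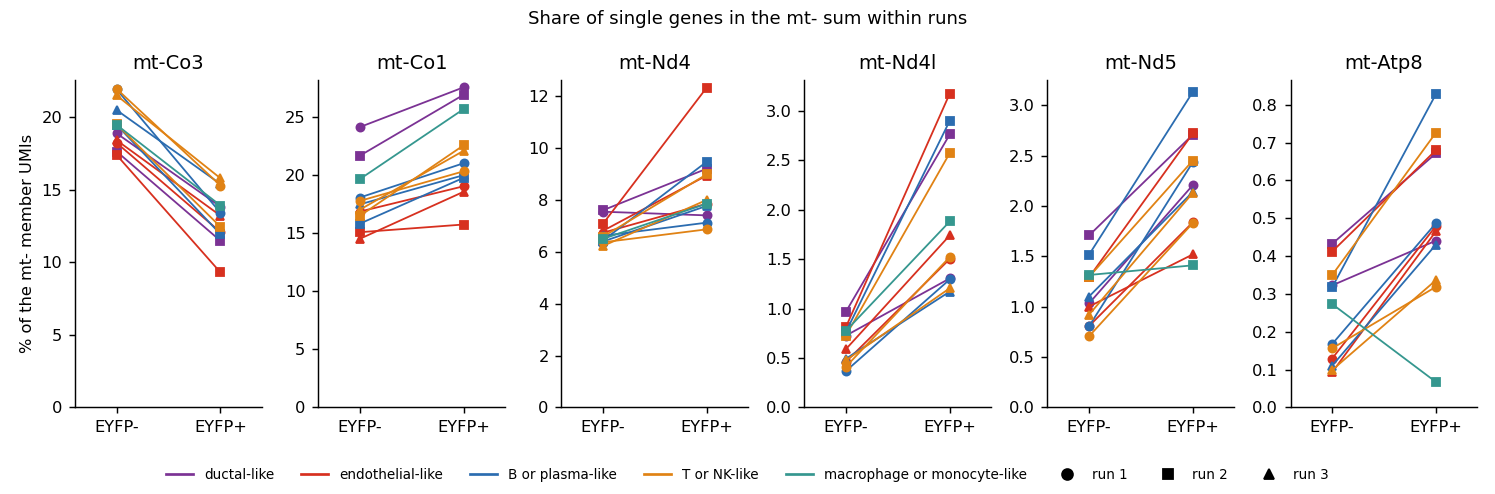
Percent of the UMIs of the 13 mt- members taken by 6 of them in EYFP negative and EYFP positive libraries, with a line for each class (colour) and run (mark). Acinar-like cells are not drawn. All 12 lines fall for mt-Co3 and rise for mt-Co1, mt-Nd4l and mt-Nd5.

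Some mt- genes overlap, and reads in bases shared on the same strand cannot be given to 1 of the 2 genes. In the GENCODE M21 annotation (GRCm38) mt-Nd4l (M, bases 9877 to 10173) shares its last 7 bases with mt-Nd4, and mt-Atp6 shares 1 base with mt-Co3. mt-Nd5 shares 14 bases with mt-Nd6 on the opposite strand, which counting by strand separates, though the labels and headers do not say that strand was used. The longest overlap, 43 bases at chrM:7927-7969, holds the end of mt-Atp8 and the start of mt-Atp6. It is printed because it covers part of the 204 bases of mt-Atp8, whose values are among the lowest here.
mt-Atp8 and mt-Atp6 overlap: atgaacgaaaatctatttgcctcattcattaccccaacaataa
The first ATG of this stretch starts mt-Atp6 and the closing TAA ends mt-Atp8, in different reading frames. The values of mt-Nd4l and mt-Atp8 are uncertain at least to this extent.

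In the acinar-like cells kept, run 3, after pancreatitis, had a larger share of nuclear and a far smaller share of mt- transcripts than homeostasis. The nuclear sum was 3920, 6142 and 9793 CPM in EYFP negative runs 1, 2 and 3 and 4594, 5851 and 8317 CPM in the EYFP positive runs. The mt- sum was 16482, 22970 and 2509 CPM and 9008, 20510 and 4240 CPM in the same order. Both run 3 libraries lay above the 4 others for nuclear and below them for mt- members, and their ratios of 3.90 and 1.96 exceeded the 0.238 to 0.510 of homeostasis. This order depended on the cells kept. With no mitochondrial maximum the mt- sum of EYFP positive run 3 was 19330 CPM and its ratio 0.424, against 10537 CPM and 0.410 in EYFP positive run 1, while EYFP negative run 3 stayed at 2509 CPM. With doublets kept, or at the lower clustering resolution, the nuclear sum of EYFP negative run 2 was 10446 CPM, above both run 3 libraries. Few cells stand behind the homeostasis values, 8 and 22 EYFP negative and 39 and 35 EYFP positive, against 370 and 99 in run 3.

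Most acinar-like cells held few mt- UMIs. The median cell had 0.0714% and 0.0754% of its UMIs from mt- members in the EYFP negative and positive libraries of run 3, and 0.0397% in EYFP positive run 1, against 0.650% to 1.34% in the other libraries. Cells with fewer than 10 mt- UMIs made up 58.9% and 55.6% in run 3 and 9.09% to 59.0% elsewhere. The richest 10th of the cells held 45.0% to 74.9% of the mt- UMIs of each library. The acinar-like mt- sums thus rest on a minority of cells. Of the 2 acinar-like clusters, the main one (533 cells) had a ratio of 2.35 and 114 CPM of Malat1, a nuclear-retained RNA, and the other (40 cells, 31 of them from EYFP positive run 2) 0.184 and 141013 CPM, beside 1632 to 153248 CPM in clusters of other classes. All run 3 cells lay in the main cluster. Within it the 4 cells of EYFP positive run 2, with 116 nuclear and 16 mt- UMIs, had 10997 and 1517 CPM and a ratio of 7.25, beyond both run 3 libraries, and the other homeostasis libraries 0.238 to 0.512. The part of damaged or incomplete cells in the result was not tested.

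The filter on low counts kept 70 of the 99 members in acinar-like cells, 58 nuclear and 12 mt- genes, and a member could pass through run 3 alone. Of the 58 nuclear members 56 were higher in run 3 (median log2 difference 0.94) and of the 12 mt- members 12 were lower (median -2.13), beside a median of -0.03 for all 730 genes tested. edgeR called 0 of the 70, beside 3.56% of all genes, 17 had an unadjusted p under 0.05, and DESeq2 called 1, mt-Nd4l, beside 0.618% of its genes. Since the filter favours genes that are high in run 3, the tally of nuclear members is a description and supports no direction. Without the filter 77 of 80 nuclear members with any UMI were higher (median 2.39) and 13 of 13 mt- members lower (median -0.61). A sparse member found only in the many cells of run 3 comes out higher there, so this nuclear tally supports no direction either. With DESeq2's size factors, which moved the median of all genes to -0.17, 55 nuclear members were higher and the 12 mt- members lower. Without the low-UMI cluster 53 nuclear members were higher and 11 lower, with a median of 0.48.

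Among complex I genes Ndufa1, a small membrane-arm subunit, had 1 UMI in EYFP negative run 1, 18.5 and 144 CPM in EYFP negative runs 2 and 3, and 56.4, 53.3 and 114 CPM in the EYFP positive runs. These values rest on 1, 2 and 438 and on 16, 4 and 93 UMIs. Its log2 difference in run 3 was 1.90 ± 0.66 (SE; edgeR adjusted p = 0.110, and 0.0448 to 0.949 over 22 alternatives). Both run 3 libraries lay above all others, and so they did for Ndufa11, another membrane-arm subunit (1.78 ± 0.69, edgeR adjusted p = 0.150), and for Ndufs5 (1.66 ± 0.71, 0.183). These genes, like Cox6a1 and Cox5b below, are named for their low p in this same contrast. The order of their libraries is therefore a description and supports no direction.

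In complex IV, Cox6a1, the widespread isoform of subunit 6a, had 40.0, 83.1 and 165 CPM and 49.3, 53.3 and 145 CPM in the same order, with a log2 difference of 1.49 ± 0.57 (edgeR adjusted p = 0.143). Cox5b, a nuclear subunit on the matrix side, had 1 UMI, 36.9 and 165 CPM and 49.3, 160 and 134 CPM, a difference of 1.58 ± 0.61 (0.150). The EYFP positive library of run 2, with 12 UMIs of Cox5b, lay among those of run 3. Cycs had 0, 27.7 and 86.5 CPM and 35.2, 80.0 and 89.8 CPM, a difference of 1.58 ± 0.70 (0.196). Some members lay near 0: Uqcrc1, a core protein of complex III, was at -0.43 ± 0.90 and Atp5a1, the alpha subunit of the ATP synthase, at -0.06 ± 0.58. Atp5b was at 0.16 ± 0.61 and Uqcrh, the hinge protein of complex III, at 0.34 ± 0.68.

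Of the mt- genes, mt-Nd4l had the lowest p. It had 140, 268 and 17.8 CPM in EYFP negative runs 1, 2 and 3 and 151, 666 and 46.7 CPM in the EYFP positive runs, on 7 to 54 UMIs a library. The log2 difference was -3.03 ± 0.77 (edgeR adjusted p = 0.0517, and 0.000999 to 0.978 over 22 alternatives). For mt-Nd2 the difference was -2.38 ± 0.86 (0.122), for mt-Co2 -2.31 ± 0.90 (0.153), for mt-Cytb -2.24 ± 0.89 (0.161), for mt-Nd3 -2.16 ± 0.84 (0.151) and for mt-Nd1 -2.10 ± 0.86 (0.172). mt-Atp6, mt-Nd4, mt-Atp8, mt-Co1, mt-Co3 and mt-Nd5 lay between -2.17 and -1.71. mt-Nd6, the gene on the other strand, did not pass the filter and had 0 to 15 UMIs a library.

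The mt- result leaned on the EYFP negative library of run 3. Without it the median was -0.35 and edgeR called 0 members, with 3 at an unadjusted p under 0.05, beside 0.319% of all genes. The fits within 1 EYFP fraction set a lone run 3 library against 2, and that library is assumed to vary like the others, so their p-values hold no replicate spread of pancreatitis. In the 3 EYFP negative libraries edgeR called 11 members, all mt- genes and all lower (log2 difference -3.78 to -3.06), beside 10.1% of its 426 genes. In the 3 EYFP positive libraries it called 0, with 0 at an unadjusted p under 0.05, a median of -0.61 and mt-Nd5 at 0.02. Without EYFP positive library 1 or 2 there were 9 calls among 52 and 7 among 76 members, beside 10.5% and 8.05% of all genes, the latter near the share of the members. Without the cells of the low-UMI cluster 7 members were called, beside 3.6% of all genes. The interaction of EYFP and pancreatitis was above 0 for 12 of 12 mt- members tested (median 1.79, and -0.69 for all genes), that is, a smaller fall in EYFP positive cells. edgeR and DESeq2 both called 0 members, with 0 at an unadjusted p under 0.05, beside 0% of all genes, so a difference in response between the EYFP fractions was not shown. Between EYFP fractions themselves edgeR called 0 of 70 members and 0% of all genes, with or without run as a block, and DESeq2 0, and 0 members had an unadjusted p under 0.05.

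**Figure D5:**
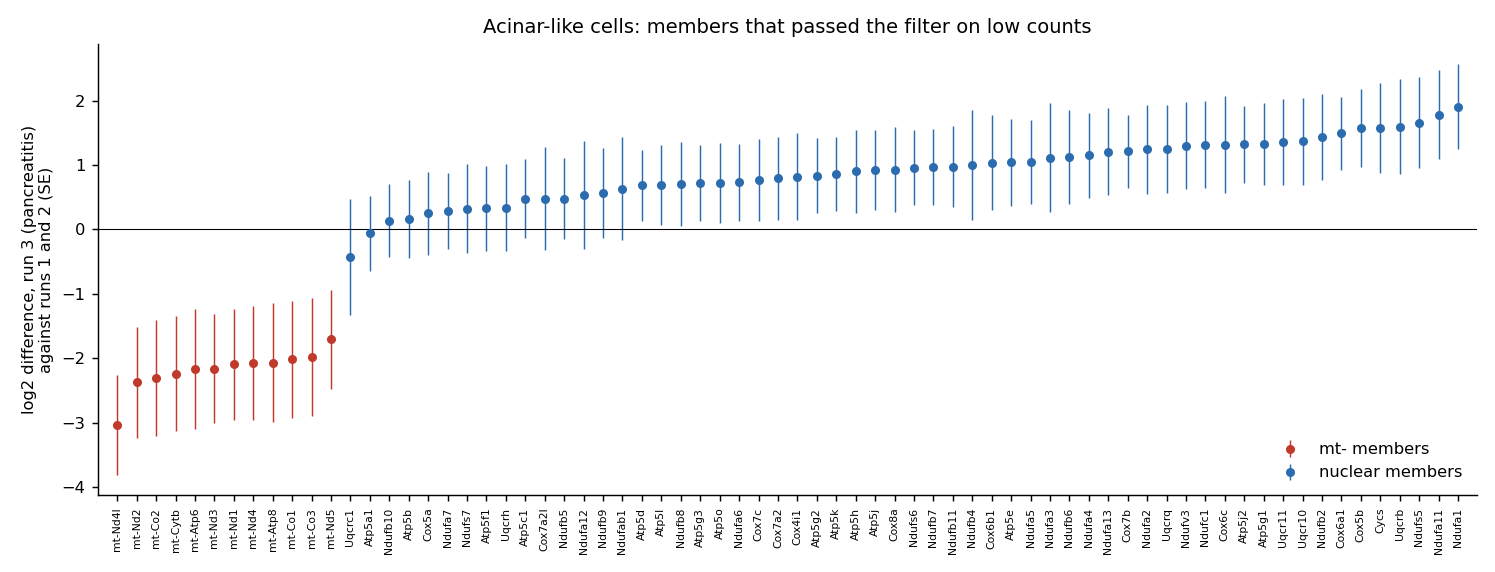
Log2 difference of run 3 (pancreatitis) against runs 1 and 2 in acinar-like cells for the 70 members that passed the filter on low counts, with SE from edgeR. The 12 mt- members (red) lie between -3.03 and -1.71 and 56 of the 58 nuclear members (blue) above 0, up to 1.90 for Ndufa1.

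The promoters of Ndufa1, Cox6a1 and Cox5b are shown because these nuclear members had the lowest p in the acinar-like pancreatitis contrast. That of Cycs was added for cytochrome c. Their acinar-like values are given above, and none of them passed the threshold. The genes shown are thus not an unselected sample of the members. Promoters of respiratory chain genes are known for sites of NRF1, of ETS factors such as GABPA, of CREB and of YY1. Each stretch holds the 250 bases before the gene's start in RefSeq (GRCm38.p6), 5′ to 3′ on the gene's strand, with matches in capitals.
Ndufa1 (chrX:37191239-37191488, minus strand): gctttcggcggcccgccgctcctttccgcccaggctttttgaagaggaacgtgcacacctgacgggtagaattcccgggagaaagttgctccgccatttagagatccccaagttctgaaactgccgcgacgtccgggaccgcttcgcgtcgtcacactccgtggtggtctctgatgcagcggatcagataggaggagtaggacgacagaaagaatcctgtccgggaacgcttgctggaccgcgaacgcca
Cox6a1 (chr5:115348959-115349208, minus strand): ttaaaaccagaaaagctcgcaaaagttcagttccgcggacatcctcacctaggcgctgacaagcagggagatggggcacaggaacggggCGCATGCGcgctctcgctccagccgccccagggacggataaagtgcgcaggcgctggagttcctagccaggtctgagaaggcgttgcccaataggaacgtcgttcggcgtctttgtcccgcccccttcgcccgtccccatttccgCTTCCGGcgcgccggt
Cox5b (chr1:36691237-36691486, plus strand): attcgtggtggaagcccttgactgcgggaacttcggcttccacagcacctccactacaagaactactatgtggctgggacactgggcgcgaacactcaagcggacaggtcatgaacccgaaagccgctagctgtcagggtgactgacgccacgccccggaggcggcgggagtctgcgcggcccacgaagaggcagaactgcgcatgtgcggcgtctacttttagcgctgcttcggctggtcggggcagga
Cycs (chr6:50566570-50566819, minus strand): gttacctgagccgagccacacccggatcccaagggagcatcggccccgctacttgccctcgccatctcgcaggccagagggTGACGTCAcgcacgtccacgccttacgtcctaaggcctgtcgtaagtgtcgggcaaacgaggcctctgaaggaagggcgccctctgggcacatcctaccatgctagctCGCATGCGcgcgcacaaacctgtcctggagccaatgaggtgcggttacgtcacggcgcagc
The capitals mark the NRF1 core GCATGCG, the ETS core CCGGAAG and the cyclic AMP response core TGACGTC, read on both strands. The palindromes CGCATGCG and TGACGTCA hold a match on each strand. Cox6a1 held the NRF1 and ETS cores, Cycs the NRF1 and cyclic AMP response cores, and Ndufa1 and Cox5b none of the letters searched.

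Of 85 nuclear symbols 68 had a promoter in the RefSeq table. The NRF1 core lay in 9 of these 68 (13.2%), against 3.07% of all 27025 promoters of the same length, and the ETS core in 11 (16.2%, against 7.05%). The cyclic AMP response core lay in 7 (10.3%, against 2.88%) and the YY1 core AAGATGG in 0 (against 4.53%). Bases after the gene's start were not searched, and such matches describe letters and not binding.

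In the other classes pancreatitis went with smaller differences. edgeR called 0 of 89 tested members in endothelial-like, B or plasma-like and T or NK-like cells, beside 0.0426%, 1.46% and 0.648% of all genes, with 2, 3 and 3 at an unadjusted p under 0.05, and DESeq2 called 0 in each, beside 0.112%, 0.351% and 0.138% of its genes. mt-Atp8, a small subunit of the ATP synthase, had the lowest p in both lymphoid classes. B or plasma-like cells had 91.7, 152 and 46.2 CPM of mt-Atp8 in EYFP negative runs 1, 2 and 3 and 172, 236 and 123 CPM in the EYFP positive runs, lowest in run 3 of either label. The difference did not pass the threshold (log2 difference -1.26 ± 0.29, edgeR adjusted p = 0.0575, and 0.000590 to 0.998 over 21 alternatives). In T or NK-like cells it had 101, 183 and 34.7 CPM and 120, 155 and 85.1 CPM (-1.60 ± 0.40, edgeR adjusted p = 0.118, and 0.000554 to 0.99995 over 20 alternatives).

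The mt- members lay lower in run 3 in 13 of 13 cases in both lymphoid classes, with medians of -0.37 and -0.53, and in 9 and 11 of 13 without the EYFP negative library of run 3. In the EYFP negative libraries, again with a lone run 3 library, B or plasma-like cells gave 2 calls, mt-Atp8 and the sparse Cox6a2, beside 4.63% of all genes, and T or NK-like cells 0, beside 0.0272% (edgeR; 3 members at an unadjusted p under 0.05). mt-Nd4l was at -0.80 ± 0.30 in B or plasma-like and -1.02 ± 0.29 in T or NK-like cells (edgeR adjusted p = 0.325 and 0.201). In endothelial-like cells 11 of 13 were higher (median 0.29), but 7 of 13 without the low-UMI clusters (0 members called by edgeR, beside 0.0726% of all genes; 1.56% in B or plasma-like cells, also with 0). The nuclear members with the lowest p there were Ndufb6 (0.64 ± 0.27), Uqcr10 (0.50 ± 0.23) and Cycs (0.54 ± 0.25), each with an edgeR adjusted p of 0.812. Whether the acinar-like difference differs from that of other classes was not tested.

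Genes that build or regulate the chain gave 0 calls by edgeR in any list, class or contrast tested, beside the percentages of all genes above. Of 52 assembly factors 29, 32 and 24 were tested in endothelial-like, B or plasma-like and T or NK-like cells and 3 in acinar-like cells. In the pancreatitis contrast 14, 14 and 7 of them were higher in the first 3 classes, and 3 of 3 in acinar-like cells, among them Coa3, a complex IV assembly factor (1.18 ± 0.58, edgeR adjusted p = 0.249). Of 36 genes for expression of mitochondrial DNA 17, 18 and 14 were tested, with 7, 10 and 3 higher in run 3, Tfam, the DNA-packaging transcription factor, at 0.83 ± 0.37 in endothelial-like cells (0.812). The split differed by class, with no direction common to all of them.

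Among 19 tricarboxylic acid cycle genes 17, 18 and 17 were tested in those classes and 11, 9 and 6 were higher in run 3, while Idh2 was at -0.99 ± 0.39 in B or plasma-like cells (edgeR adjusted p = 0.355). Of 23 glycolysis genes 13, 12 and 13 were tested and 9, 4 and 5 were higher. In acinar-like cells Gpi1, which acts at the second step of glycolysis, was at -2.04 ± 0.91 (0.195). Among regulators Nrf1 was at -1.28 ± 0.41 in endothelial-like cells in run 3 (0.707). Hif1a, the oxygen-sensing transcription factor, was at 1.09 ± 0.34 and 1.21 ± 0.29 in EYFP positive B or plasma-like and T or NK-like cells. It was called in neither of these classes (edgeR adjusted p = 0.253 in T or NK-like cells). Of the mitochondrial carriers, Slc25a4, which exchanges ADP and ATP, was at -0.65 ± 0.23 and -0.84 ± 0.34 in run 3 in the same classes (0.271 and 0.636), and Chchd10 at 1.01 ± 0.29 in B or plasma-like cells (0.134).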

How the data were processed

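The authors deposited 6 matrices of UMI counts per gene and barcode, as 10x Genomics files. Cell Ranger 2.1.0 and GRCh38, a human build, are named in the submitters' processing notes, while the file headers give software version 3.1.0 and the genes are mouse genes; the build was not settled. The members and gene lists were chosen with earlier results of these data known. Barcodes under 200 genes or over 20% mitochondrial UMIs were removed, as were Scrublet doublets, and of barcodes shared by the 2 libraries of a run the shallower copy was dropped, a choice made after the data were seen. Cells were clustered with scanpy 1.11.5 (2000 variable genes without the members, 30 components, 15 neighbours, Leiden resolution 1). Clusters were named from markers among their 10 leading genes, or 25 where the first 10 held none, with a pseudocount of 1 per 10000, settings adjusted after clusters were seen.

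Counts were summed per library and class (at least 10 cells, acinar-like 5, in at least 5 libraries and every group of EYFP and condition) and tested with edgeR 4.0.16's quasi-likelihood test (R 4.3.3), with DESeq2 1.42.0 as an alternative; adjusted p under 0.05 counts as called. The test was run on simulated data. Totals were 1044718 to 23658431 UMIs per library. Intervals are exact Poisson (95%), the floor is 3 counts, and both cover counting error only. Named genes are all mt- members, a fixed list of subunits and isoforms, those of lowest p in a contrast, and the 10 with the largest ratio between class means. Deviations of same-run libraries correlated at 0.285 to 0.719 in acinar-like, 0.0335 to 0.243 in endothelial-like, -0.0294 to 0.319 in B or plasma-like and 0.182 to 0.359 in T or NK-like cells. Libraries of different runs and labels had -0.732 to 0.0484, -0.156 to 0.0379, -0.411 to 0.218 and -0.319 to 0.0139 in the same order. The ranges overlapped in endothelial-like and B or plasma-like cells. Deviations were taken from the means of each EYFP label, so those of run 3 include the pancreatitis difference.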

Additional observations from a re-analysis of the deposited data

How the results depend on the processing

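Called members numbered 0 in every class and contrast reported, and 129 alternatives left these counts as they were while 38 moved them. For pancreatitis in acinar-like cells the count was 1 with DESeq2, with library sizes without mt- genes, with no mitochondrial maximum (Ndufa1), with stricter cells and without shared barcodes, beside 0.618%, 5.62%, 15.6%, 18.7% and 6.85% of all genes. It was 7 without low-UMI clusters (3.6%) and 11 in the EYFP negative libraries only (10.1%, with a lone run 3 library), and from 0 to 9 (10.5%) when each library was left out in turn. For pancreatitis in endothelial-like cells it was 1 without the low-count filter (0.642%). In B or plasma-like cells it was 2 without that filter and in EYFP negative libraries only, 1 with no mitochondrial maximum, doublets kept, resolution 0.5 or shallower copies kept, and 0 to 1 over left-out libraries, beside 1.01% to 4.63%. In T or NK-like cells it was 1 without the filter and without shared barcodes, 2 with no mitochondrial maximum, and 0 to 1 over left-out libraries, beside 0.801% to 1.5%. For EYFP in endothelial-like cells it was 1 with DESeq2, no mitochondrial maximum, doublets kept, resolution 0.5, members among the variable genes, no shared barcodes or no low-UMI clusters, 3 without the filter and 2 with run as replicate block, beside 0.0187% to 0.299%. In B or plasma-like cells it was 1 with DESeq2, without the filter and with the replicate block (0.0135% to 0.399%). In T or NK-like cells it was 4 with DESeq2, 2 without the filter and 5 with the replicate block (0.0482% to 0.585%). The block changed no other call.

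The mt-Nd5 log2 difference, pancreatitis, acinar-like, turned to 0.022 in EYFP positive libraries only and ran from -2.56 to 0.35 over left-out libraries. The acinar-like ratio was 5.59 as the median over cells of their own ratio, and outside enzyme, haemoglobin and mt- genes the nuclear sum was 30003 CPM in acinar-like and 17821 CPM in T or NK-like cells. Over all genes, pancreatitis in acinar-like cells gave 26 calls, but 5 with DESeq2's size factors and 75 with DESeq2. The cause was not tested for any of these. The few acinar-like cells of homeostasis limit every acinar-like value. Macrophage or monocyte-like and fibroblast-like cells had under 5 libraries with enough cells, and ductal-like cells none of EYFP negative pancreatitis, so these fits were not run as planned.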
